A study of Homo sapiens with 4 samples.

Results

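The calcium-dependent phosphatase calcineurin, the NFAT transcription factors it acts on and its feedback inhibitor RCAN1 were followed in 2 cutaneous T cell lymphoma lines. The genes were 4 NFAT factors (NFATC1, NFATC2, NFATC3 and NFAT5), 4 calcineurin subunits (PPP3CA, PPP3CB, PPP3CC and PPP3R1) and RCAN1. Every probe set, the group of short probes that reads 1 transcript, whose single gene symbol in the array annotation was 1 of these 9 was taken, which gave 33 of the 54675 probe sets and 9 of the 19775 named genes. The 4 arrays were, 1 each, MyLa with 5 ng/ml IL-32γ, MyLa control, HH with 5 ng/ml IL-32γ and HH control. MyLa is labelled as a line of mycosis fungoides and HH as a line of cutaneous T cell lymphoma. All 4 cultures were kept for 40 hours in 0.1% serum, and the controls received no IL-32γ, an isoform of the cytokine interleukin-32. The title of the series places IL-32 in mycosis fungoides beside Th2 and Th9 polarization, and the comparisons are what IL-32γ changed within each line and how the lines differed.

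Calcineurin is built of a catalytic subunit, encoded by PPP3CA, PPP3CB or PPP3CC, and a calcium-binding regulatory subunit, which PPP3R1 encodes outside the testis. When a T cell receptor signal raises cytosolic calcium, calmodulin switches calcineurin on, and calcineurin strips phosphates from NFATC1, NFATC2 and NFATC3, which then enter the nucleus and turn on cytokine genes with partners such as AP-1. Ciclosporin and tacrolimus suppress T cells by blocking this step. NFAT5 shares the DNA-binding domain but lacks the calcineurin-controlled region and is known for the response to osmotic stress. RCAN1 binds and restrains calcineurin and is itself an NFAT target.

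Levels are log2 values after GCRMA, a method that corrects background by probe sequence, and 50.5% to 51.1% of the probe sets on each array lay below 3. Probe sets at 5 or more were counted as measured, and lower values were raised to this floor of 5 before differences were formed. In RNA of a whole culture, fewer cells that express a gene and less RNA per cell cannot be told apart. Of the 33 probe sets, 24 reached 5 on at least 1 array and 21 on all 4, while 9 lay below 5 on every array: 4 of NFATC1, 2 of NFATC2 and 1 each of NFATC3, PPP3CC and RCAN1. T cell markers fixed as a list of 11 reached 5 for 5 genes on each MyLa array and 8 genes on each HH array. CD3D, CD3G, CD247, CD2 and ZAP70 were measured in both lines, CD3E, CD5 and CD4 in HH only, and CD7, LCK and TRAT1 in neither. No listed marker of B cells, NK cells, keratinocytes or endothelial cells reached 5 on any array. Of the fibroblast list, COL1A2 and DCN lay below 5 on every array, and POSTN reached 5 on the MyLa control array alone, at 6.17. Of the myeloid list, CD14, LYZ and CSF1R lay below 5 on every array, and CD68 had no probe set with a single symbol. The remaining fibroblast marker, COL1A1, read 10.82 and 11.30 in MyLa with IL-32γ and control, against 5.66 and 4.78 in HH. The remaining myeloid marker, ITGAM, read 8.73 and 9.00 in MyLa, against 2.13 on both HH arrays. Their part in the results was not tested.

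**Figure D1:**
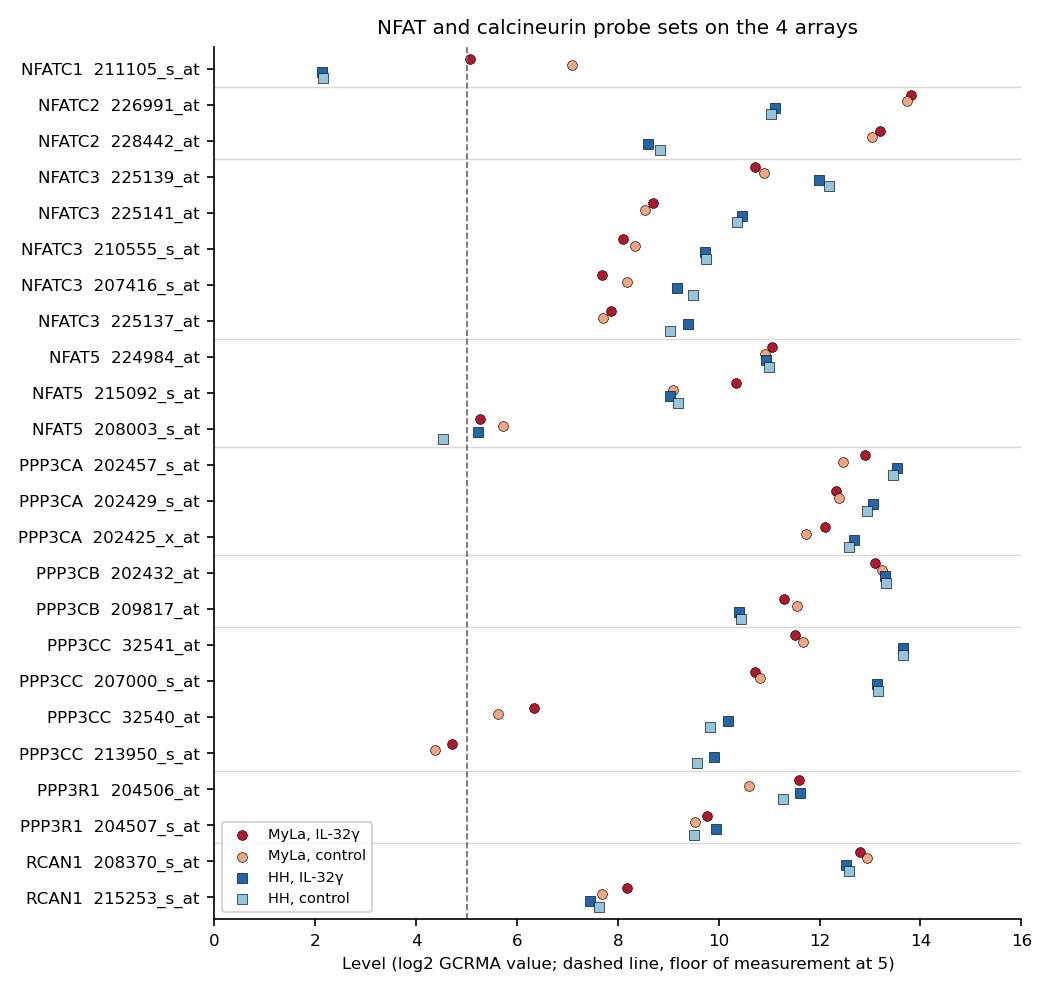
Level of each member probe set that reached 5 on at least 1 array (x axis, log2 GCRMA value), with red circles for MyLa and blue squares for HH, darker with IL-32γ and paler for control; each point is 1 array and the dashed line is the floor of 5. NFATC2 lies to the right in MyLa, NFATC3 and PPP3CC lie to the right in HH, and NFATC1 is above the floor only in MyLa.

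The lines differed at 3 of the 9 genes on every probe set tested. NFATC2 was higher in MyLa, and NFATC3 and PPP3CC, the gamma isoform of the catalytic subunit, were lower in MyLa. These are MyLa minus HH differences from limma over 25306 probe sets at 5 or more on at least 2 arrays, called at an adjusted p under 0.05 and at least 2-fold, where each line's spread comes from its IL-32γ and control arrays and so also holds the IL-32γ response. Of the 24 member probe sets tested, 2 (8.33%) were called higher and 9 (37.5%) lower in MyLa, beside 18.2% higher and 16.8% lower of all probe sets tested. The 9 lower ones belong to 2 genes, and probe sets of a gene are not independent. At 1 brightest probe set per gene, 1 member was higher and 2 were lower, beside 18.6% and 16.6% of 11010 genes. Of the 24, 2 were tested through values in 1 line only, 1 of NFATC1 (MyLa) and 1 of PPP3CC (HH), and a feature kept that way had to differ. Among the 22 measured in both lines, 2 (9.09%) were higher and 8 (36.4%) lower in MyLa, beside 14.3% and 13.8% of the 21820 probe sets measured in both. On the same arrays the control probe set at the 5′ end of ACTB read 11.81 and 10.12 in MyLa with IL-32γ and control, against 13.58 and 12.69 in HH, and that at its 3′ end 15.07 and 15.14 in MyLa, against 15.24 and 15.27 in HH. Their part in the line differences was not tested.

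NFATC2 encodes the NFAT factor long known from resting T cells. Its brighter probe set, 226991_at, read 13.80 with IL-32γ and 13.73 in control MyLa, against 11.12 with IL-32γ and 11.05 in control HH. Its other measured probe set, 228442_at, read 13.20 and 13.03 in MyLa, against 8.61 and 8.83 in HH, in the same order of arrays. Both MyLa arrays lay above both HH arrays on each, and the IL-32γ and control arrays of a line lay close together. The share of all probe sets that separate the lines in this way was not counted. The log2 difference was 2.69 ± 0.11 (SE), or 6.43-fold, on the first (adjusted p = 0.000551, limma) and 4.40 ± 0.15 (SE), or 21.1-fold, on the second (adjusted p = 0.000351, limma). The 2 probe sets thus gave one direction and unequal sizes. Both stayed called without any 1 array, with adjusted p-values from 0.0151 to 0.0301.

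NFATC3, another calcineurin-controlled factor, had 5 probe sets above the floor, all lower in MyLa. The brightest, 225139_at, read 10.71 with IL-32γ and 10.90 in control MyLa, against 11.98 and 12.18 in HH. On 225141_at the MyLa arrays read 8.70 and 8.54, against 10.46 and 10.35 in HH. No MyLa array overlapped an HH array on any of the 5, though the share of all probe sets without such overlap was not counted. The MyLa minus HH differences ran from -1.78 ± 0.12 on 225141_at (SE, adjusted p = 0.00185, limma) to -1.27 ± 0.14 on 225139_at (SE, adjusted p = 0.00599), that is 3.44-fold and 2.42-fold lower in MyLa. The remaining 3 lay between, at -1.52 on 210555_s_at, -1.42 on 225137_at and -1.40 on 207416_s_at, with adjusted p-values of 0.00333, 0.00764 and 0.0155. The sizes held without any 1 array, from -1.86 to -1.15, but the number called depended on it. It was 2 of 5 without either MyLa array, 1 without the HH control array and 0 without the HH IL-32γ array, where adjusted p-values ran from 0.0533 to 0.133. Each of these fits has 3 arrays and 1 residual degree of freedom.

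PPP3CC had the widest line difference of the calcineurin subunits. On 32541_at the MyLa arrays read 11.52 with IL-32γ and 11.68 in control, against 13.65 and 13.66 in HH, and on 207000_s_at 10.72 and 10.82, against 13.13 and 13.15. On both, MyLa was lower by a similar amount, -2.06 ± 0.12 (SE, adjusted p = 0.00122, limma) and -2.37 ± 0.11 (SE, adjusted p = 0.000713), that is 4.17-fold and 5.17-fold. The other 2 measured probe sets gave larger differences. Those were 32540_at, at 6.33 and 5.61 in MyLa against 10.19 and 9.83 in HH, and 213950_s_at, at 4.71 and 4.37 in MyLa against 9.91 and 9.57 in HH. The first was lower by 16.5-fold in MyLa (log2 difference -4.04 ± 0.31 SE, adjusted p = 0.00237, limma). The second, below the floor on both MyLa arrays, was lower by at least 26.7-fold (log2 difference -4.74). It passed the filter through HH alone, so no p is given for it. The 32540_at call was lost without the HH IL-32γ array (adjusted p = 0.0832) or the HH control array (0.0755), while 32541_at and 207000_s_at were called without any 1 array.

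The other subunits of calcineurin showed smaller line differences, none called at 2-fold. PPP3CA, which encodes the alpha catalytic subunit, read 12.90 with IL-32γ and 12.47 in control MyLa on 202457_s_at, against 13.54 and 13.45 in HH. Its 3 probe sets had MyLa minus HH differences of -0.81, -0.71 and -0.64 with adjusted p-values of 0.0348, 0.0395 and 0.0178 (limma), so all 3 passed the p threshold and none reached 2-fold. By p alone 12 member probe sets were lower in MyLa and 3 higher, beside 24.8% and 25.7% of all tested. Without the MyLa IL-32γ array 202457_s_at reached -1.02 (adjusted p = 0.0332). Without either HH array the adjusted p-values of the 3 were 0.0754 or more, and without the MyLa control array 0.0544 or more.

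PPP3CB, the beta catalytic subunit, had 2 probe sets that disagreed. On 202432_at it read 13.10 and 13.23 in MyLa with IL-32γ and control, against 13.29 and 13.31 in HH, a difference of -0.14 (95% interval -0.46 to 0.18, adjusted p = 0.361, limma). On 209817_at it read 11.28 and 11.55 in MyLa, against 10.41 and 10.43 in HH, a difference of 0.99 ± 0.14 (SE, adjusted p = 0.0102) just under 2-fold, which became 1.13 and was called without the MyLa IL-32γ array (adjusted p = 0.0198). PPP3R1, the regulatory subunit, differed by -0.35 (95% interval -1.48 to 0.78) on 204506_at and by -0.08 (-0.69 to 0.53) on 204507_s_at, with adjusted p-values of 0.495 and 0.764.

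For NFATC1, NFAT5 and RCAN1 no line difference was called. NFATC1, the factor that T cells induce through its own NFAT-driven promoter on activation, read 5.07 with IL-32γ and 7.09 in control MyLa on 211105_s_at, against 2.14 and 2.15 in HH. It was thus measured in MyLa alone, and control MyLa lay at least 4.24-fold above control HH. Over both arrays the difference was 1.08 ± 0.75 (SE, limma), and it rests on which MyLa array is kept. It was 0.07 without the MyLa control array and 2.09 without the MyLa IL-32γ array. With neither floor nor filter it was 3.93. The probe set passed the filter through MyLa alone, so no p is given for it. NFAT5 differed by 0.03 on 224984_at (95% interval -0.31 to 0.36), 0.60 on 215092_s_at (-0.77 to 1.97) and 0.38 on 208003_s_at (-0.23 to 0.99). The second was at -0.03 without the MyLa IL-32γ array (adjusted p = 0.871) and at 1.23 without the MyLa control array, where it was called (adjusted p = 0.049998). RCAN1 read 12.80 and 12.93 in MyLa with IL-32γ and control on 208370_s_at, against 12.52 and 12.59 in HH, a difference of 0.32 (95% interval -0.01 to 0.65, adjusted p = 0.0936). On 215253_s_at it read 8.18 and 7.69 in MyLa, against 7.45 and 7.62 in HH, a difference of 0.40 (-0.22 to 1.02, adjusted p = 0.201).

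**Figure D2:**
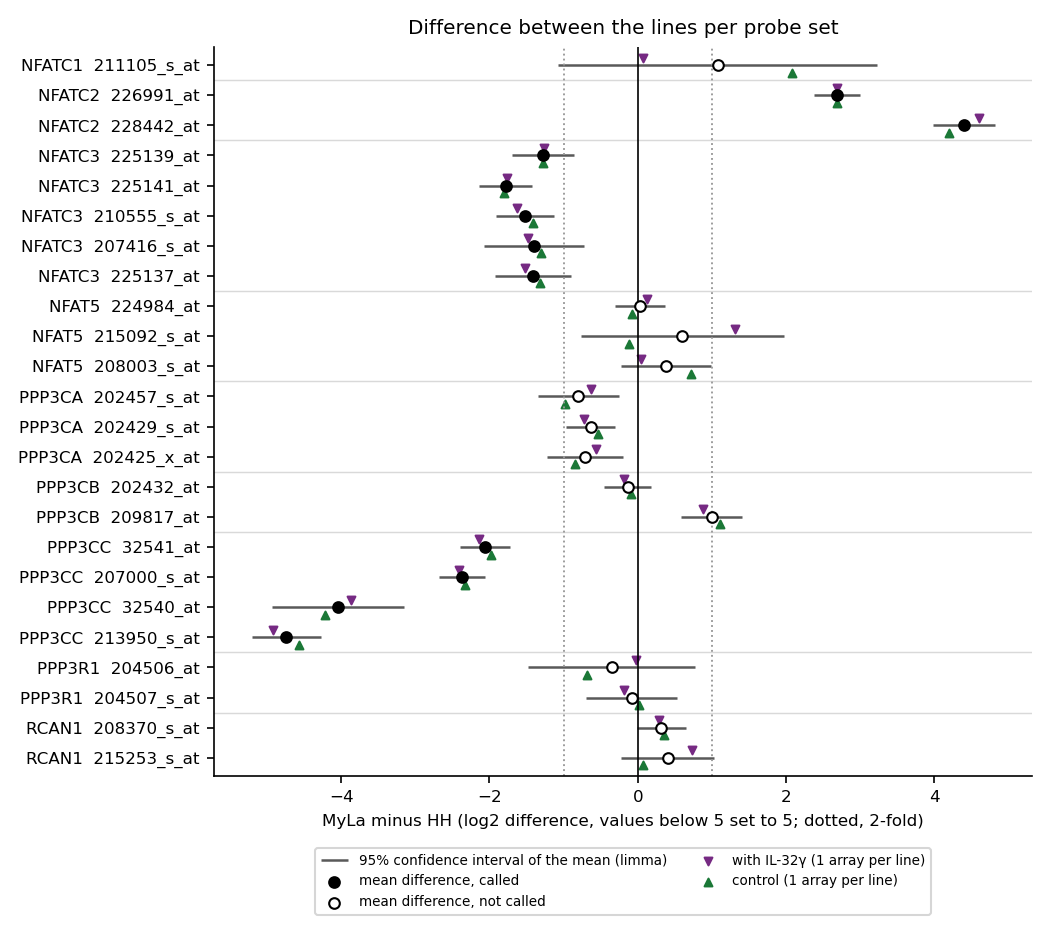
MyLa minus HH log2 difference per member probe set: circles are the mean over both conditions (filled where called at an adjusted p under 0.05 and 2-fold), bars its 95% confidence interval from limma, purple triangles the difference with IL-32γ and green triangles that between controls, 1 array per line each. Values below 5 were set to 5, so NFATC1, PPP3CC 213950_s_at and the control value of NFAT5 208003_s_at are bounds. NFATC2 lies right of the 2-fold line at 2.69 and 4.40, and all NFATC3 and PPP3CC probe sets lie left of it.

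The promoter letters of the calcineurin-controlled NFAT genes NFATC1, NFATC2 and NFATC3 are shown so that they can be read beside these levels, with those of RCAN1 as the NFAT target of the group. They come from RefSeq (GRCh38.p14), which held 12 starts for 5 of the genes used here: NFATC1 (2), NFATC2 (2), NFATC3 (1), PPP3R1 (1) and RCAN1 (6). NFAT5, PPP3CA and PPP3CB had no window there, and PPP3CC was left out of this step. Each run is the 250 bases before a start, 5′ to 3′ on the gene's strand, and capitals mark GGAAA, the core letters that NFAT proteins bind, or TTTCC, the same motif on the other strand. The matches shown do not overlap. Of 35116 windows of this length in the table, 55.6% held a match, and 5 of the 12 did. The windows are chr18:79395680-79395929 (plus strand) for NFATC1, chr20:51562840-51563089 (minus strand) for NFATC2, chr16:68085120-68085369 (plus strand) for NFATC3 and chr21:34526823-34527072 (minus strand), a start inside the gene, for RCAN1.
NFATC1: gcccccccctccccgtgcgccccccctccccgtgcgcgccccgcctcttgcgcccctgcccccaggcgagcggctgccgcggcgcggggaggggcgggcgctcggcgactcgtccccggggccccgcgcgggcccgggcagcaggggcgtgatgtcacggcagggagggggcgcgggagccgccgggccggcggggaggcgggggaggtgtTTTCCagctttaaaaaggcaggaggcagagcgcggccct
NFATC2: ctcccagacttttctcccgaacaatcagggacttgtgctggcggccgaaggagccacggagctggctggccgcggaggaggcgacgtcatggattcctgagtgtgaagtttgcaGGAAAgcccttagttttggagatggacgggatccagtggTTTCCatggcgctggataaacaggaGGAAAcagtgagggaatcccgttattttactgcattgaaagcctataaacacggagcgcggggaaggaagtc
NFATC3: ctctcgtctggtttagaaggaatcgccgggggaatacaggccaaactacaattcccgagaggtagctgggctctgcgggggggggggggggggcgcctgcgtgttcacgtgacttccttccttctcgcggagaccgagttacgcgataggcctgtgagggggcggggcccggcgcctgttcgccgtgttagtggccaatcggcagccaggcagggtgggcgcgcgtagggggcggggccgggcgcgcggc
RCAN1: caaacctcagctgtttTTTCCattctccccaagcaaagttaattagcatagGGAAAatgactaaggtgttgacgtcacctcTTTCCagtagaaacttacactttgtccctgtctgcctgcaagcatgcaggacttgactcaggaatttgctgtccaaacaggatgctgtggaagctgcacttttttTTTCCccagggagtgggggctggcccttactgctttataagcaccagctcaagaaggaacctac

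The NFATC1 window shown held 1 match, which began 39 bases before the start, and the window of its other start 1, at 54 bases. The NFATC2 window shown held 3, at 136, 97 and 72 bases, and the window of its other start held none. The NFATC3 window held none. The RCAN1 window held 4, at 234, 199, 169 and 64 bases before the start, while the other 5 RCAN1 windows held none. These matches describe letters in a window, and no binding was measured.

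With IL-32γ most of these probe sets lay within 1.5-fold of control in both lines, and those that passed 1.5-fold did so in MyLa. There, 3 of 23 measured probe sets were higher by 1.5-fold or more with IL-32γ, 1 each of NFAT5, PPP3R1 and PPP3CC, and 1 was lower, that of NFATC1, beside 11.0% higher and 9.13% lower of all probe sets. In HH, 0 of 23 passed in either direction, beside 5.45% higher and 4.02% lower. The median difference of the members was 0.07 in MyLa and -0.01 in HH, beside -0.05 and -0.02 over all probe sets. Each of these differences comes from 1 pair of arrays and was not tested. On the same arrays the control probe set at the 5′ end of ACTB was higher with IL-32γ by 1.69 in MyLa and 0.89 in HH, and that of GAPDH by 0.68 and 0.15. Their part in the results was not tested.

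NFATC1 had the largest IL-32γ difference among the members. Its 211105_s_at value was 5.07 with IL-32γ, against 7.09 in control MyLa, 4.06-fold lower (log2 difference -2.02). The treated value lies at the floor of measurement and the 4 other NFATC1 probe sets were below it everywhere, so the difference rests on 1 probe set and 1 pair of arrays. With the floor at 6 it was -1.09.

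In NFAT5 the probe sets went different ways in MyLa. The 215092_s_at value was 10.34 with IL-32γ, against 9.09 in control MyLa, 2.39-fold higher (1.26), while in HH it was 9.03 with IL-32γ and 9.20 in control (-0.17). The 224984_at probe set, the brightest, read 11.06 with IL-32γ and 10.92 in control MyLa (0.14), and 10.93 and 11.00 in HH (-0.07). The dim 208003_s_at read 5.26 with IL-32γ and 5.72 in control MyLa (-0.46), and 5.22 and 4.53 in HH, at 0.22 after flooring. The MyLa difference of 215092_s_at was thus not shared by the other 2 probe sets of the gene.

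PPP3R1 was higher with IL-32γ on both probe sets and in both lines, by unequal amounts. The 204506_at value was 11.58 with IL-32γ, against 10.60 in control MyLa (0.98), and 11.61 against 11.28 in HH (0.33). The 204507_s_at value was 9.76 with IL-32γ, against 9.53 in control MyLa (0.24), and 9.95 against 9.50 in HH (0.45). With the lines as replicates the mean difference was 0.66 ± 0.22 (SE, adjusted p = 0.491, limma, blocked by line) and 0.34 ± 0.14 (SE, adjusted p = 0.53).

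The catalytic subunits varied less. PPP3CC was higher by 0.71 in MyLa and 0.36 in HH on 32540_at, and by 0.35 in HH on 213950_s_at, the 2 probe sets with low MyLa values, while 32541_at and 207000_s_at stood at -0.16 and -0.09 in MyLa and at -0.01 and -0.02 in HH. PPP3CA differed by 0.43, -0.07 and 0.38 in MyLa on 202457_s_at, 202429_s_at and 202425_x_at, and by 0.08, 0.11 and 0.10 in HH. PPP3CB differed by -0.12 and -0.26 in MyLa on 202432_at and 209817_at, and by -0.02 on each in HH. RCAN1, which NFAT activity raises, differed by -0.13 in MyLa and -0.07 in HH on 208370_s_at, and by 0.49 and -0.16 on 215253_s_at.

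NFATC2 and NFATC3 stayed near control. NFATC2 differed by 0.07 in MyLa and 0.07 in HH on 226991_at, and by 0.17 and -0.23 on 228442_at. Across its 5 probe sets NFATC3 ran from -0.49 (207416_s_at) to 0.16 (225137_at) in MyLa and from -0.31 to 0.36 on the same probe sets in HH. A limma fit over both lines, blocked by line, called no member: the members' adjusted p-values ran from 0.485 to 0.962. This fit called 0 of 25306 probe sets (0%), while 2571 (10.2%) and 1 of the members, PPP3CC 32540_at (0.54 ± 0.16 SE), had an unadjusted p under 0.05. It has 1 residual degree of freedom.

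**Figure D3:**
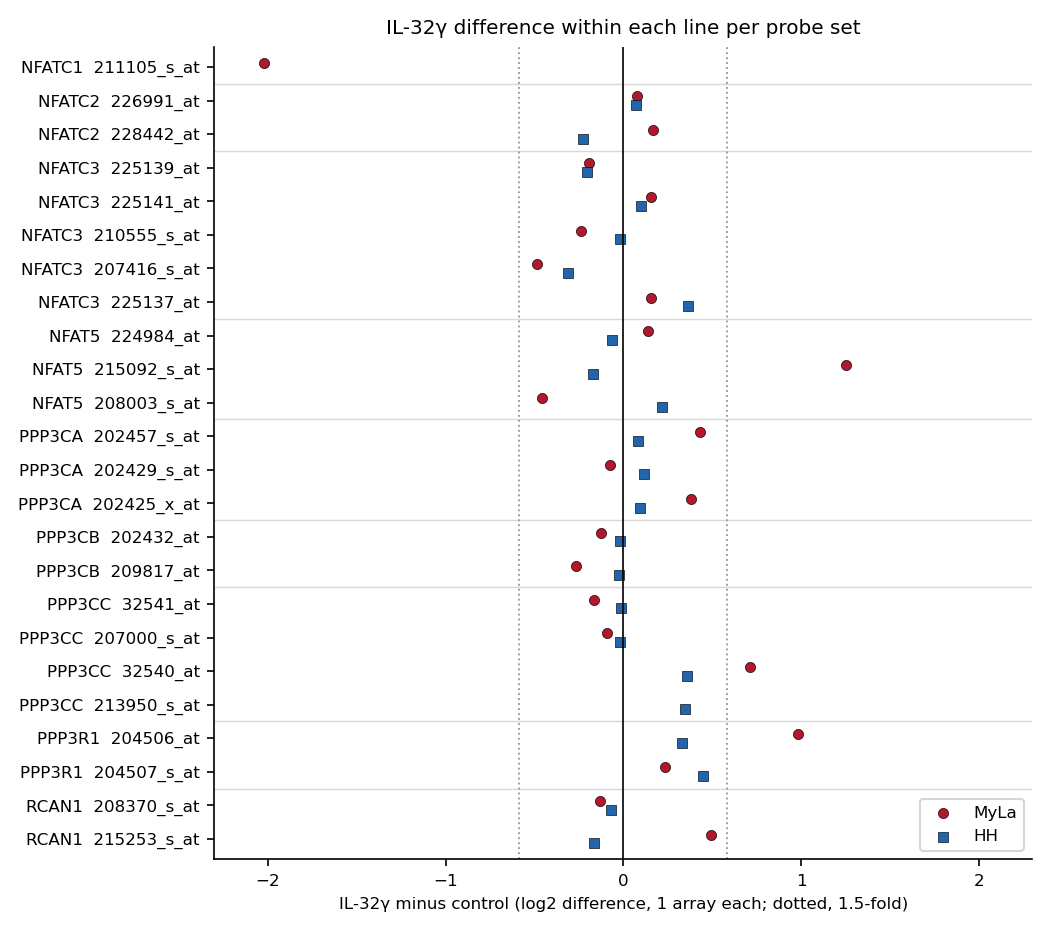
IL-32γ minus control log2 difference of each member probe set in MyLa (red circles) and HH (blue squares), each from 1 pair of arrays; dotted lines mark 1.5-fold and a missing point means that the probe set was below 5 on both arrays of that line. NFATC1 in MyLa stands at -2.02, NFAT5 215092_s_at at 1.26, PPP3R1 204506_at at 0.98 and PPP3CC 32540_at at 0.71, and no HH point passes 1.5-fold.

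Genes that act around calcineurin and NFAT were read from 6 lists of 75 genes, of which 63 had a probe set with 1 symbol and 46 were tested between the lines. Among these, 9 were called higher and 12 lower in MyLa, beside 18.6% and 16.6% of all genes. Of the 46, 39 were measured in both lines, and 4 of these were higher and 11 lower, beside 14.3% and 13.2% of the 9545 genes measured in both. With IL-32γ, 1 of 44 measured in MyLa was higher by 1.5-fold or more and 2 lower, beside 7.77% and 7.65% of all genes, and in HH 0 of 42 were higher and 4 lower, beside 1.14% and 4.46%. The lists' median IL-32γ difference was -0.02 in MyLa and -0.04 in HH, beside -0.07 in each over all genes. Without the HH IL-32γ array the line calls were 4 higher and 5 lower, and without the HH control array 5 and 6.

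Upstream of calcineurin, the calcium entry genes differed in both directions. Of 9 tested, 2 (22.2%) were called higher and 3 (33.3%) lower in MyLa, beside 18.6% and 16.6% of all genes. All 9 were measured in both lines, where the shares of all genes were 14.3% and 13.2%. The list's median was -0.31, beside 0.03 over all genes tested. ORAI1, the pore of the store-operated calcium channel, read 10.16 and 10.44 in MyLa with IL-32γ and control, against 6.91 and 7.61 in HH (8.23-fold higher, adjusted p = 0.00407, limma). ORAI2, a related channel subunit, read 7.16 and 7.48 in MyLa, against 9.68 and 10.23 in HH (6.22-fold lower, adjusted p = 0.00406, limma). Its other probe sets gave smaller log2 differences, -1.49 and -1.62. ITPR1, an inositol trisphosphate receptor that releases stored calcium, was higher in MyLa by 2.32 ± 0.13 (SE, adjusted p = 0.00116), with 3 of its 4 other probe sets at 2.42 to 2.76 and 1 at -0.33. Its relative ITPR3 was lower by 5.47-fold (log2 difference -2.45, adjusted p = 0.00496), and STIM2, a calcium sensor of the endoplasmic reticulum, by 3.13-fold (-1.64, adjusted p = 0.00175).

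With IL-32γ, PLCG1, the phospholipase that starts the calcium signal, was at 11.10, against 11.74 in control MyLa (-0.64), and at 12.10, against 12.60 in control HH (-0.50). In HH, ORAI1 (-0.70) and ITPR3 (-0.62) were lower by 1.5-fold or more.

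Of the other calcineurin and NFAT partners, 3 of 8 tested were lower in MyLa and none higher (median -0.75), beside 16.6% and 18.6% of all genes. Of the 7 measured in both lines, 2 were lower and 0 higher (median -0.71), beside 13.2% and 14.3% of all genes measured in both. RCAN2, a relative of RCAN1 that also binds calcineurin, lay at 2.13 on both MyLa arrays, against 9.42 and 9.88 in HH with IL-32γ and control, at least 25.1-fold lower, and was tested through HH alone. AKAP5, which anchors calcineurin near membranes, read 5.77 and 5.34 in MyLa, against 9.68 and 9.88 in HH (18.6-fold lower, adjusted p = 0.000795, limma). CABIN1, a calcineurin inhibitor, was lower by 2.03-fold (adjusted p = 0.0441, limma), while its other probe set, at a log2 difference of -0.93, was under 2-fold. With IL-32γ in HH, CABIN1 (-0.63) and HOMER2 were lower by 1.5-fold or more. HOMER2, a scaffold that competes with calcineurin for NFAT, read 4.74 with IL-32γ and 5.75 in control HH, so its -0.75 is a bound. Among the kinases that return NFAT to the cytoplasm and their complex, 1 of 10 tested was called higher and 0 lower in MyLa. This stands beside 18.6% and 16.6% of all genes, and the list's median was 0.23. The called gene was CSNK1E, a casein kinase (2.04-fold higher in MyLa, adjusted p = 0.0138, limma).

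Among T cell genes that NFAT is known to drive, 5 were measured in MyLa alone and 1 in HH alone. These are 6 of the 8 tested, beside 1465 of all 11010 genes tested. Of 16 on the array, 8 lay below 5 on every array, among them IL2, IFNG, IL4 and FASLG. Of the 8 tested, 5 were called higher in MyLa and 2 lower (median 3.64), beside 18.6% and 16.6% of all genes. All 5 of the higher ones, however, were below 5 on both HH arrays and entered the test through MyLa alone. Their folds and the median are therefore bounds, the count follows from the filter, and no p is given for them. The 2 targets measured in both lines, IRF4 and TOX, were the lower ones. CD69, measured in HH alone, read 5.76 and 5.33 in HH with IL-32γ and control, against 3.35 and 3.45 in MyLa, and was not called. IL2RA, a chain of the interleukin-2 receptor, read 13.12 and 12.56 in MyLa with IL-32γ and control, against 2.70 and 2.39 in HH (at least 230-fold higher). CTLA4, an inhibitory receptor, was higher by at least 5.64 on the log2 scale, though its other tested probe set gave a log2 difference of 1.66. The cytokine genes IL13, TNF and IL5 were higher by at least 42.2-fold, 14.4-fold and 10.7-fold. The transcription factor genes IRF4 and TOX were lower in MyLa by 3.56-fold (adjusted p = 0.00179, limma) and 3.34-fold (adjusted p = 0.00148). With IL-32γ, IL13 was the 1 target past 1.5-fold in MyLa, at 10.78 against 10.02 in control (0.76).

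Calcineurin also acts on other substrates, the transcription factors of the MEF2 family and TFEB among them. Of 7 tested substrate genes, 1 was called higher and 2 lower in MyLa (median -0.07), beside 18.6% and 16.6% of all genes. MEF2C read 6.98 and 7.72 in MyLa with IL-32γ and control, against 13.52 and 13.50 in HH (71.7-fold lower, log2 difference -6.16, adjusted p = 0.000764, limma). Its other probe sets gave -2.99 and -8.18, and it was at -0.74 with IL-32γ in MyLa. TFEB, a regulator of lysosomal genes, was lower by 8.65-fold (adjusted p = 0.00172) and MEF2A higher by 2.83-fold (adjusted p = 0.00231). Of 4 tested genes that NFAT5 is known to drive under osmotic stress, 0 were called higher and 2 lower in MyLa. The shares of all genes were 18.6% and 16.6%. The taurine transporter gene SLC6A6 and the calcium-binding protein gene S100A4 were lower by 3.50-fold (adjusted p = 0.00159) and 4.63-fold (adjusted p = 0.00303). SGK1 and SLC5A3 were higher by 0.72 and 0.54 (log2) and not called, and the other SLC5A3 probe sets gave 0.59 to 1.18. None of the 4 was past 1.5-fold with IL-32γ in either line.

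**Figure D4:**
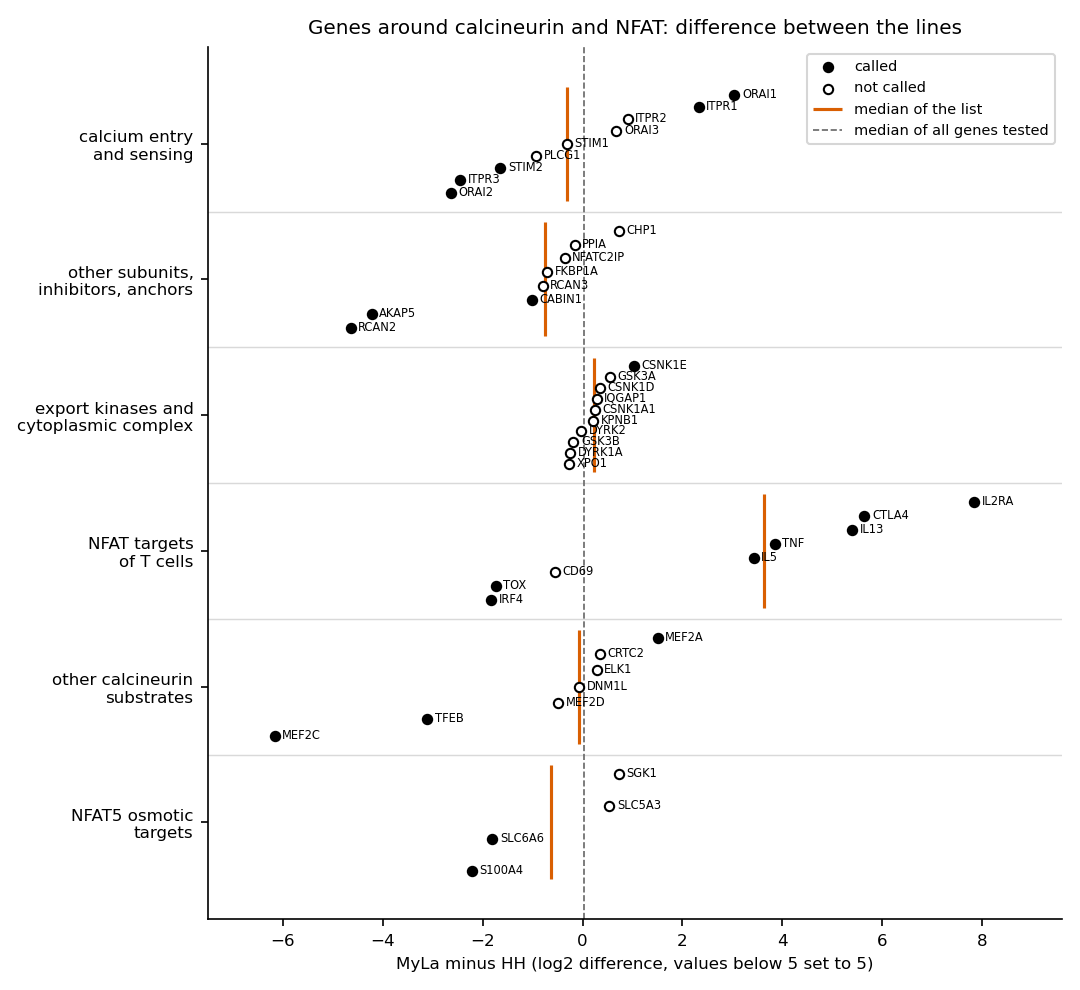
MyLa minus HH log2 difference of the 46 tested genes around calcineurin and NFAT, 1 point per gene by list, filled where called at an adjusted p under 0.05 and 2-fold; the orange bar is the list's median and the dashed line the median of all genes tested. Values below 5 were set to 5, so differences of genes below 5 in a line are bounds. The 5 highest points, IL2RA, CTLA4, IL13, TNF and IL5, are NFAT targets of T cells that lay below 5 on both HH arrays.

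Genes with a like pattern over the 4 arrays were found by the distance between mean-centred levels, among 11009 genes, for members that spanned at least 1. The 4 arrays set such a pattern, so likeness is a description. Nearest to NFATC1 were ACOT11 (distance 0.12), RHBDF1 (0.20) and TMEM132D (0.35), all above the floor in MyLa alone and lower with IL-32γ. Nearest to NFATC2 were CALML6 (0.05), COL7A1 (0.06) and ADAP2 (0.06), all below 5 on both HH arrays, so that this likeness is to floored values. Nearest to NFATC3 were TTN (0.02), WDR90 (0.07) and RSBN1L (0.08). PPP3CC lay nearest to UBXN8 (0.04), COQ2 (0.05) and TPX2 (0.05), PPP3CA to SVBP (0.05), LINC00467 (0.05) and COX20 (0.06), and PPP3R1 to KAT6A (0.02), NOTCH1 (0.06) and RFWD3 (0.11).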

How the data were processed

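Each line and condition gave 1 array, hybridised with biotin-labelled RNA. The deposited log2 values, 1 per probe set, were made with GCRMA, per the submitters' processing notes; its version is not stated, nor whether normalisation was joint. Values between 2.13 and 16.0 fit a log2 scale. Of the 54675 probe sets 41097 had 1 gene symbol, 1801 had several symbols (left unnamed here), and 11777 lacked an entry; 41043 of those with 1 symbol matched a RefSeq gene table (GRCh38.p14), used for names alone.

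Values below 5 were set to 5. Differences between lines were fitted with limma 3.58.1 in R 4.3.3 (2 residual degrees of freedom) over probe sets measured on at least 2 arrays, and those for IL-32γ with line as a block (1 degree). Tests were two-sided and adjusted by Benjamini-Hochberg over all 25306 probe sets. Nothing in the labels says that the 2 arrays of a line are separate cultures of 1 condition, so p-values measure the spread between these arrays. Within a line the IL-32γ difference has no test, and 1.5-fold was counted. For lists, the probe set with the highest mean stood for a gene.

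In simulated data of 25306 probe sets with 50 changed at each of 2-, 4-, 8- and 16-fold, the fit between lines made 117 calls, of which 8 were false, and found 1, 26, 42 and 40 of the 50, in that order of fold. The IL-32γ fit made 76 calls, 8 of them false, and found 0, 0, 26 and 42. In the simulation 200 probe sets changed, while the line fit of the real data called 4599 higher and 4264 lower in MyLa. The Benjamini-Hochberg adjustment depends on how many change, so the simulated rates do not carry over to the real line fit.

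Members, lists and marker genes were chosen with earlier results of these data known. Values of every measured member probe set are given, and of each list up to 4 genes: the 2 highest and 2 lowest called line differences, and per line the highest and lowest IL-32γ difference past 1.5-fold. The 3 genes of nearest pattern were named per member. STIM2, CABIN1, TNF, IL5, CD69, SGK1 and SLC5A3, ITPR3 in HH, CABIN1 in HH, and the undetected targets were named after their values were seen. Alternatives were floors of 4, 6 or none, quantile, median or cyclic loess scaling, other fold thresholds, other probe set choices, fits with a trend, other blocks, and fits without each array in turn. Python 3.11.15 with pandas 2.3.3 made the tables and matplotlib 3.10.9 the plots.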

Additional observations from a re-analysis of the deposited data

Results flagged for a closer look

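The IL-32γ difference of NFAT5 on 215092_s_at went opposite ways in the lines, 1.26 in MyLa and -0.17 in HH (log2), and passed 1.5-fold in MyLa. The difference between the lines was not tested, since with 1 array per condition no residual degree of freedom is left for it. Of the 22 member probe sets measured in both lines, 6 had opposite signs, and this was the 1 of them past 1.5-fold in either line. The share of all probe sets with opposite signs was not counted. The other NFAT5 probe sets did not share the MyLa difference, at 0.14 on 224984_at and -0.46 on 208003_s_at.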

How the results depend on the processing

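Of 285 recomputed line differences of single member probe sets, 254 kept their direction and their side of the threshold, 19 kept their direction and were no longer called, 4 became called, and 8, none of them called in either fit, changed sign. These were NFAT5 224984_at under quantile scaling (-0.0016) and median centring (-0.018) and in the range -0.042 to 0.095 without 1 array, NFAT5 215092_s_at (-0.026 to 1.23 without 1 array), PPP3R1 204506_at (-0.84 to 0.14) and PPP3R1 204507_s_at (-0.31 to 0.14). Of 288 recomputed IL-32γ differences, 285 moved by less than the spread of such differences over all probe sets. The exceptions were NFATC1 with the floor at 6 (-1.09) and NFAT5 208003_s_at in HH, at 0.69 under both a floor of 4 and no floor or filter. With the floor at 4, or with neither floor nor filter, 1 member probe set was therefore higher in HH. PPP3CC 32540_at in MyLa moved by less than that spread, from 0.71 to 0.33 with the floor at 6, but no longer passed 1.5-fold. At that floor 2 member probe sets were higher with IL-32γ in MyLa. With neither the floor nor the filter on low values, NFATC3 207416_s_at and 225137_at were no longer called (adjusted p = 0.114 and 0.0659). Over the 4 fits without 1 array, 2 to 4 member probe sets were called higher and 3 to 7 lower in MyLa, and 4 to 8 list genes higher and 5 to 8 lower. With a 4-fold minimum 4 member probe sets and 7 list genes were lower, and with no minimum 14 list genes were higher. At 1.3-fold, 6 member probe sets were higher and 3 lower with IL-32γ in MyLa and 1 higher in HH, and 6 list genes higher and 4 lower in MyLa, 1 higher and 8 lower in HH. At 2-fold, 1 member probe set was higher in MyLa, and 0 list genes passed in MyLa in either direction or were lower in HH. Without probe sets named _x_at or _s_at, which can match several transcripts, 5 member probe sets were lower between lines, 0 were lower with IL-32γ in MyLa, and 2 list genes were higher and 1 lower there. Averaging all probe sets of a gene, 3 list genes were higher and 0 lower in MyLa, and 1 was higher in HH. Quantile, median and loess scaling moved the median line difference by at most 0.04 and changed no member's call. With the IL-32γ condition as a replicate block in the line fit, 2 member probe sets were higher and 9 lower in MyLa, as without it, and without the replicate block of line the IL-32γ fit called 0. Without 1 array that fit has no residual degree of freedom, so it gives the difference of the other line and no test.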
